A study of Mus musculus with 6 samples.

Results

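The expression of 8 genes that are read as markers of macrophage polarization was followed in single liver non-parenchymal cells (LNPCs) of mice with NASH. These were Chil3, Retnla, Mgl2, Nos2, Il10, Cd86, Acod1 and Ptgs2, 8 of the 16455 genes that the count tables of all 6 libraries shared. They were taken by symbol, not by their values, and all 8 were found, Acod1 in replicates 1 and 2 under its older symbol Irg1. They were kept out of the genes used for clustering, and none of them was used to name a cell class. All mice were male C57BL/6J, bought at 8 weeks of age and fed a high-fat diet for 24 weeks. Over the last 8 weeks one group was given the DMSO vehicle and the other was given ginkgetin, a biflavone of Ginkgo biloba, at 10 mg/kg per day by the intragastric route. Each group had 3 libraries of 10x Genomics Chromium data, all from diet-fed mice, so no comparison with a healthy liver was made. The sources used here do not say whether a library was 1 mouse or a pool, so p-values measure the spread between these libraries only.

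Macrophages take up different programmes according to the signals they meet. Interleukin 4 and interleukin 13 act through the transcription factor STAT6 and switch on Chil3, Retnla and Mgl2 in mouse macrophages, a state named M2 or alternative activation. Lipopolysaccharide and interferon-gamma act in good part through NF-kB and switch on Nos2, Cd86, Ptgs2 and Acod1, a state named M1 or classical activation. Chil3, Retnla and Mgl2 encode secreted or cell-surface proteins, whereas Nos2, Ptgs2 and Acod1 encode enzymes that make the small mediators nitric oxide, prostaglandins and itaconate. In the liver the resident macrophages are Kupffer cells, and blood monocytes add further macrophages during NASH, among them cells that carry the lipid receptor Trem2.

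Stretches upstream of 4 members are shown with the letters bound by STAT6, C/EBP, NF-kB, CREB and PU.1, factors known to act on myeloid genes of this kind. The RefSeq promoter table (GRCm38.p6) held 5 of the 8 members, and bases before the start are printed, 5′ to 3′ on the strand of the gene. Each stretch stops before the earlier of the RefSeq and GENCODE starts, which leaves out the last 58 bases before the RefSeq start of Retnla and the last 35 before that of Acod1, and distances are counted from the RefSeq start. Capitals mark matches, on either strand, to TTC and GAA with 4 free bases between them (STAT6), TTGC and AA with 2 free bases between them (C/EBP), GGG and TTCC with 3 free bases between them (NF-kB), ACGTCA (CRE) and GGAAGT (PU.1).
Chil3, chr3:106167565-106167814, minus strand: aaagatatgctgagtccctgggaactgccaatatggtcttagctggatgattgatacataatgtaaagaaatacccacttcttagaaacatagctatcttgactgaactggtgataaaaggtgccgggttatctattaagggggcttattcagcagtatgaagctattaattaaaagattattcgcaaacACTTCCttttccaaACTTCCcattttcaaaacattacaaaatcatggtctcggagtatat
Retnla, chr16:48842359-48842550, plus strand: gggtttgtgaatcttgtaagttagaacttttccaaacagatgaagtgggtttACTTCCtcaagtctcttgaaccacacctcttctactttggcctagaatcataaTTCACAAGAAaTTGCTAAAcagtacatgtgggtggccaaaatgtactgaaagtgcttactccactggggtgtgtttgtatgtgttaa
Acod1, chr14:103046762-103046976, plus strand: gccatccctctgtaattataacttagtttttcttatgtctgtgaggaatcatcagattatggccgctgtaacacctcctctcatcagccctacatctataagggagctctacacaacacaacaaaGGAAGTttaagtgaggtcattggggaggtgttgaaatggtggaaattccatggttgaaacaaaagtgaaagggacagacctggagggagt
Ptgs2, chr1:150099781-150100030, plus strand: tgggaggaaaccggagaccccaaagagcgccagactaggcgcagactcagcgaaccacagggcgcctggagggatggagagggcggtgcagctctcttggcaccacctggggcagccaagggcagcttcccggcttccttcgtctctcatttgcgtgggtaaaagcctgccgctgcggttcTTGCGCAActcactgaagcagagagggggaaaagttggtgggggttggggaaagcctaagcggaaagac
The stretch before Chil3 held 2 PU.1 matches, at 60 to 55 and at 46 to 41 bases before the start. The Retnla stretch held a PU.1 match at 198 to 193, a STAT6 match at 145 to 136 and a C/EBP match at 134 to 127 bases before the start. A single PU.1 match lay 125 to 120 bases before the start of Acod1, and a single C/EBP match lay 69 to 62 bases before that of Ptgs2. Among all 32536 promoter windows of 250 bases, the PU.1 letters occurred in 19.8%, the C/EBP letters in 9.57%, the CRE letters in 6.50%, the STAT6 letters in 5.89% and the NF-kB letters in 4.65%. A match is a description of the letters and not a site of binding.

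Of 33168 barcodes, 27544 passed the filter, with 3336 to 6918 cells and 11766342 to 42746627 UMIs in kept cells of a library and a median of 2483 to 8412 UMIs a cell. Cells were sorted into classes by fixed markers, and 6442 of them were monocytes or macrophages, 5083 of 13490 vehicle cells and 1359 of 14054 ginkgetin cells. These comprised 2270 Kupffer-like, 1513 Trem2 macrophage-like, 2032 classical monocyte-like and 394 patrolling monocyte-like cells, and 233 cells of 2 clusters that got no class name. The filter of 250 to 5000 was applied to genes per cell, whereas the methods of the study name UMIs. With UMIs 16821 barcodes passed and edgeR called no member in any class or sum fitted. The filter used removed 3.53% to 38.9% of the UMIs of each member other than Retnla in vehicle replicate 3. Another 46, 105 and 226 vehicle cells and 0, 12 and 173 ginkgetin cells were hepatocyte-like, although the preparation was of non-parenchymal cells. Only 11, 5 and 36 of the Trem2 macrophage-like cells came from ginkgetin replicates 1, 2 and 3, and replicate 2, with under 10 cells, was left out of that fit. Vehicle and ginkgetin Kupffer-like cells fell into different clusters. A cluster led by Fabp7, Ctla2b, Apoc1 and Folr2 held 682, 395 and 42 vehicle cells and 1 to 3 cells of each ginkgetin library, and one led by Gdf15 and Mmp12 held 348 cells of vehicle replicate 3. A cluster led by Cxcl13, Cd163 and Jchain held 85, 193 and 11 ginkgetin cells, and one led by Marco, C6 and Cd163 held 481 cells of ginkgetin replicate 3. Median UMIs were 10090 in a vehicle and 2079 in a ginkgetin Kupffer-like cell. The 10 endothelial markers together stood at 149 to 153 CPM (counts per 1000000 UMIs of a class in a library) in vehicle and 550 to 1459 CPM in ginkgetin Kupffer-like cells. The 10 neutrophil markers stood at 58.9 to 64.2 and 107 to 324 CPM there and the 6 T cell markers at 2.44 to 8.98 and 22.2 to 56.4 CPM, and what part these played in any value below was not tested. Replicate 3 of both groups carried newer gene symbols and another set of barcodes, and log2 CPM ratios within each set are given for some members. No 2 libraries shared more than 85 barcodes.

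Counts of a class were summed in each library and tested with edgeR, and a gene is said to have risen or fallen where the Benjamini-Hochberg adjusted p over all genes was under 0.05 and the change over 2-fold. Log2 fold changes are ginkgetin over vehicle after TMM scaling, which sets the median gene near 0, whereas CPM are not TMM scaled. Scaling by library size alone moved the median gene up by 0.45 in Kupffer-like cells, 0.35 in all monocytes and macrophages and 0.33 in all kept cells, so on the CPM scale every log2 difference lies higher by about that much.

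**Figure D1:**
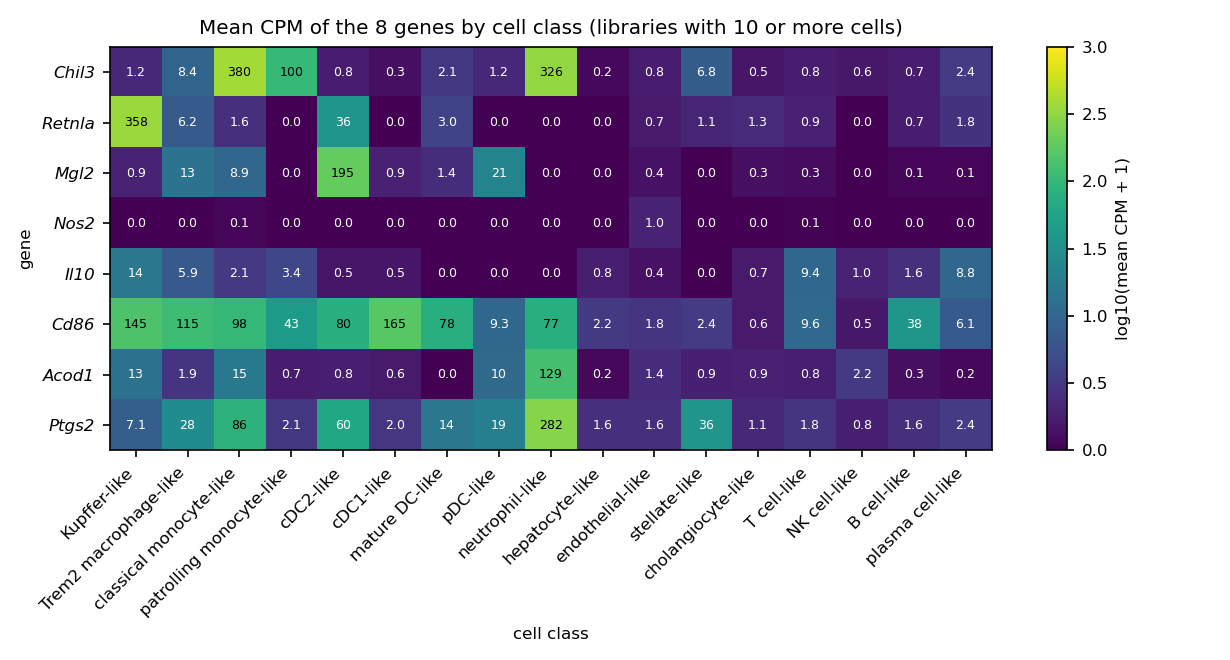
Mean CPM of each of the 8 genes (rows) in each cell class (columns) over all vehicle and ginkgetin libraries with 10 or more cells of the class, with colour on the scale log10(mean CPM + 1). Mgl2 was highest in cDC2-like, Chil3 in classical monocyte-like cells (380 CPM, beside 326 CPM in neutrophil-like cells of 2 libraries) and Retnla in Kupffer-like cells, whereas Nos2 stood at or near 0 in every class.

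The members had different homes among the liver cells. Of the 9279 Chil3 UMIs in kept cells 85.0% lay in classical monocyte-like cells, and of the 1439 Mgl2 UMIs 79.3% lay in cDC2-like cells, a class of conventional dendritic cells. Kupffer-like cells held 37.1% of the 10049 Cd86 UMIs, 36.7% of the 833 Acod1 UMIs and 33.7% of the 698 Il10 UMIs. Classical monocyte-like cells held 41.8% of the 3443 Ptgs2 UMIs. Nos2 was nearly undetected, with 36 UMIs in all. Of the 3275 Retnla UMIs 69.3% lay in Kupffer-like cells, most of them in single cells. Positions given for the members are those of RefSeq on GRCm38. Levels of different genes are not ranked against each other here, because CPM are not scaled for transcript length.

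In the sum of all kept cells, 5 of the 7 members tested fell with ginkgetin. These were Chil3, Acod1, Cd86, Ptgs2 and Il10. In that comparison 14.1% of 14111 genes were called, 7.19% higher and 6.93% lower. The same sums held 1359 monocytes and macrophages in the ginkgetin group against 5083 in the vehicle group, and in a sum over all cells fewer cells of a type and less RNA per cell cannot be told apart. Cd86 stood at 76.1, 82.4 and 107 CPM in the vehicle libraries and at 21.1, 17.6 and 29.9 CPM in the ginkgetin libraries, so the groups did not overlap (log2 fold change -2.28, SE 0.19, adjusted p = 0.00127, edgeR quasi-likelihood test). Chil3 stood at 75.2, 34.0 and 130 CPM against 6.85, 7.04 and 12.3 CPM, again with no overlap (log2 fold change -3.52, SE 0.46, adjusted p = 0.00335). Each of the 5 was lower in all 3 ginkgetin libraries than in any vehicle library, as were 10.9% of all genes tested. The remaining values were -3.06 for Acod1 (adjusted p = 0.0027), -2.27 for Ptgs2 (adjusted p = 0.0348) and -2.07 for Il10 (adjusted p = 0.0117). Retnla (-1.25, adjusted p = 0.664) and Mgl2 (0.02, adjusted p = 0.982) did not pass. The Ptgs2 call was lost without vehicle replicate 2 or 3 (adjusted p = 0.0658 and 0.0563) and without ginkgetin replicate 2 or 3 (adjusted p = 0.116 and 0.0849). With replicates 1 and 2 alone, 3 members were called, Chil3, Acod1 and Cd86, and the calls of Ptgs2 and Il10 were lost. The share of all genes called in that fit is not given, so its count is not read as a result about the members. With the filter applied to UMIs, 0.0% of genes were called by edgeR in this comparison, and 1807 of 12055 genes had an unadjusted p under 0.05.

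Within cell classes few members moved past the test. In Kupffer-like cells 1 of 5 members tested was called, Cd86, where 12.1% of all genes were called, 6.25% higher and 5.84% lower. In all monocytes and macrophages together edgeR called 0 of 7, where 6.76% of all genes were called, 3.88% higher and 2.88% lower. There 3 of the 7 had an unadjusted p under 0.05 and DESeq2 called 1, Mgl2, and none of the 7 was lower in all 3 ginkgetin libraries than in any vehicle library, as 7.92% of all genes were. edgeR called 0 of 4 members in Trem2 macrophage-like cells, 0 of 5 in classical and 0 of 2 in patrolling monocyte-like cells, where it called 0.206%, 0.165% and 0.0% of all genes. Unadjusted p were under 0.05 for 1, 1 and 1 of these members, and DESeq2 called none of them, though it gave no adjusted p for 3 of the 4 in Trem2 macrophage-like cells. In the 12 other classes 0 of 8 tests of a member passed, against 0.296% of all genes (0.494% in cDC2-like cells), with an unadjusted p under 0.05 in 4 and no DESeq2 call. Deviations from the group means set replicate 3 of both groups apart and did not show that replicates 1 and 2 are paired. With the replicate number as a block the calls were 2 in Kupffer-like cells (Cd86 and Acod1, against 15.5% of genes), 1 in all monocytes and macrophages (Mgl2, against 9.69%) and 1 each in classical and patrolling monocyte-like cells (Chil3 in each, against 0.974% and 1.44%). In Trem2 macrophage-like cells the block put Chil3 past the threshold too, as 2.76% of genes were, but it had no UMI in the ginkgetin libraries there and entered the fit through the vehicle group alone, so no change is read from it. With the replicate block the same 5 members were called in all kept cells as without it, against 17.5% of genes. Blocking on the barcode set instead, Chil3 did not pass in classical (adjusted p = 0.0503) or patrolling monocyte-like cells (adjusted p = 0.0595). With the filter applied to UMIs, edgeR called no member in Kupffer-like cells (1.26% of genes) or in all monocytes and macrophages (2.67% of genes). The median member stood at -0.73 in Kupffer-like cells, -0.49 in all monocytes and macrophages and -2.27 in all kept cells, beside 0.05, 0.01 and 0.04 for all genes tested.

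**Figure D2:**
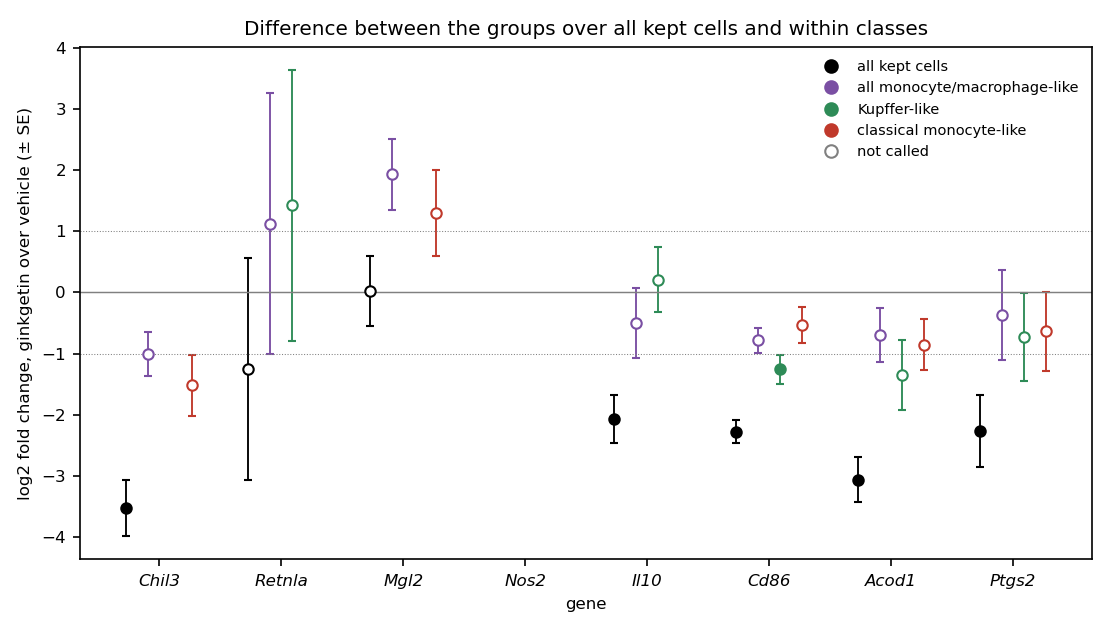
Log2 fold change (ginkgetin over vehicle, edgeR, TMM scaled) of the members in all kept cells, all monocytes and macrophages, Kupffer-like and classical monocyte-like cells, with bars of 1 standard error, filled where the gene was called and absent where it was not tested. The all-cell values of 5 members were filled and below 0, and within cell classes only Cd86 in Kupffer-like cells (-1.26) was filled.

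Nos2 (chr11:78920787-78960226, plus strand), the inducible nitric oxide synthase and the textbook M1 enzyme, was hardly detected in macrophages or elsewhere. Its 36 UMIs lay in 33 cells, and 29 of them lay in endothelial-like cells, 12 in the vehicle and 17 in the ginkgetin group. One vehicle cell among 5083 monocytes and macrophages held 3 UMIs. No ginkgetin cell of 1359 held any, which allows a share of up to 0.221% of cells with a UMI, counting error only, and sets no limit on cells that express the gene. A difference between the groups was therefore not detectable at this depth.

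**Figure D3:**
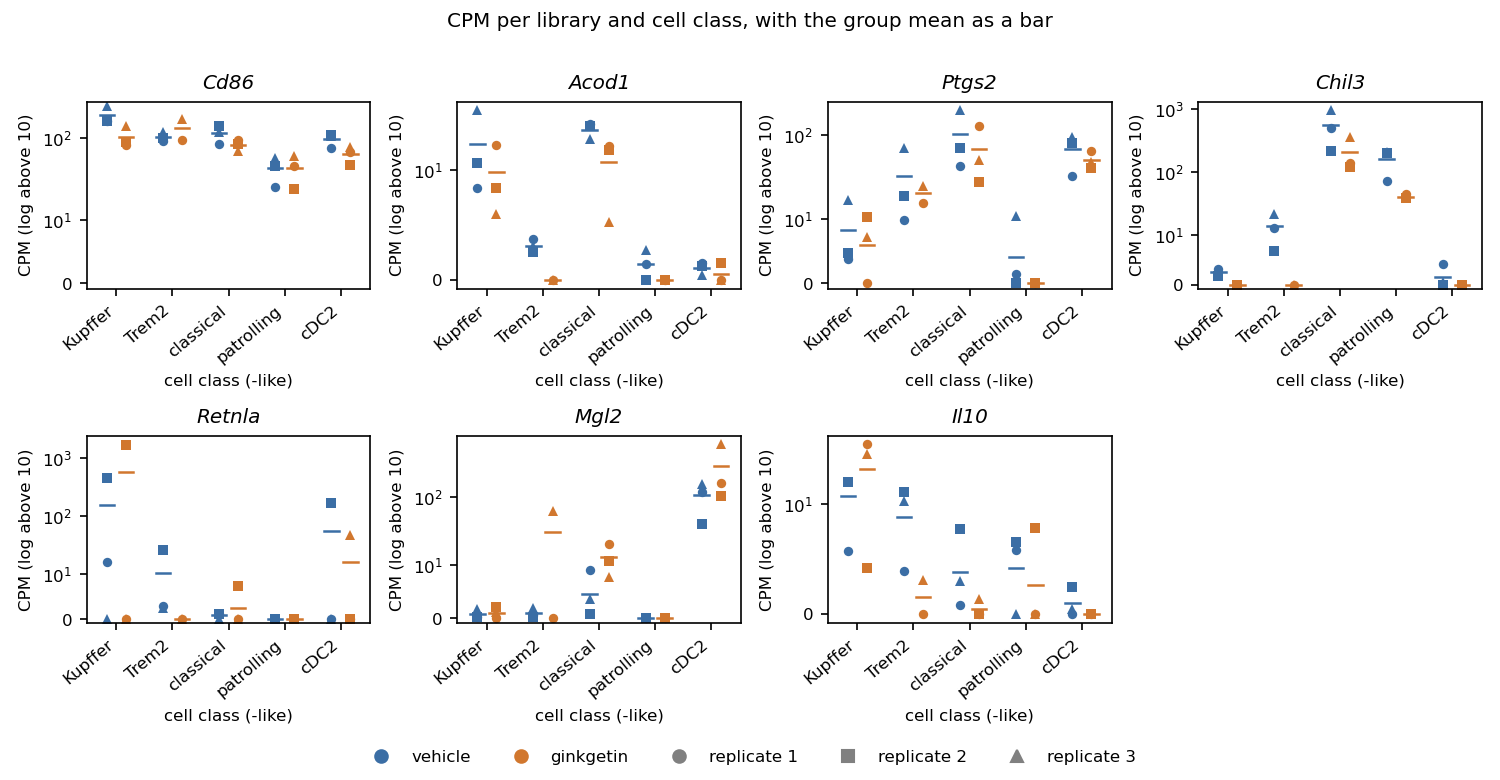
CPM of 7 of the members in each library (points, with colour for the group and shape for the replicate) and the group mean (bars) in Kupffer-like, Trem2 macrophage-like, classical monocyte-like, patrolling monocyte-like and cDC2-like cells, on axes that are logarithmic above 10 CPM and differ between panels. Cd86 separated the groups in Kupffer-like cells, whereas Chil3 and Ptgs2 overlapped in classical monocyte-like cells.

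Chil3 (chr3:106147554-106167564, minus strand), a secreted chitinase-like lectin also known as Ym1, had most of its UMIs in classical monocyte-like cells. In neutrophil-like cells it stood at 301 and 350 CPM in vehicle replicates 1 and 3, from 31 and 142 UMIs in 13 and 30 cells, and no other library had 10 or more such cells. Neutrophil-like cells thus lay within the range of the vehicle classical monocyte-like cells. In classical monocyte-like cells it stood at 504, 215 and 942 CPM in the vehicle libraries and at 140, 121 and 360 CPM in the ginkgetin libraries, 554 ± 366 against 207 ± 133 (SD, n = 3). Ginkgetin replicates 1 and 2 lay below the vehicle range, and the groups overlapped through ginkgetin replicate 3. The difference did not pass (log2 fold change -1.52, SE 0.50, adjusted p = 0.252, edgeR), but did with the replicate block (-1.44, SE 0.22, adjusted p = 0.0332). Within the barcode sets the log2 CPM ratios were -1.46 and -1.39. After each cell was thinned to 1000 UMIs, 25.6%, 14.6% and 34.3% of vehicle and 9.78%, 11.6% and 20% of ginkgetin classical monocyte-like cells had a Chil3 UMI, and at most 0.32% of T cell-like cells did. Endothelial markers stood at 39.4 to 65.7 CPM in vehicle and 118 to 863 CPM in ginkgetin classical monocyte-like cells, and their part was not tested. Without thinning the vehicle shares were 51.6%, 39.4% and 61.99%, and the ginkgetin mean minus the vehicle mean was -20.3 points, at unequal depths.

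In patrolling monocyte-like cells Chil3 stood at 71.2, 203 and 204 CPM in the vehicle libraries and at 45.1, 39.1 and 38.5 CPM in the ginkgetin libraries, from 49, 31 and 75 against 3, 5 and 11 UMIs. The groups did not overlap, as 9.11% of all genes tested did not in that direction, and the difference did not pass (log2 fold change -1.97, SE 0.50, adjusted p = 0.186, edgeR). It passed with the replicate block (-2.14, adjusted p = 0.0397) and without vehicle replicate 1 (-2.35, adjusted p = 0.0449). Endothelial markers stood at 73.3 to 209 CPM in vehicle and 175 to 900 CPM in ginkgetin patrolling monocyte-like cells. Neutrophil markers stood at 65.4 to 71.2 and 75.2 to 144 CPM and T cell markers at 0 to 7.27 and 7.01 to 60.2 CPM. B cell markers stood at 32.7 to 95.9 and 0 to 93.9 CPM, and the part of these markers was not tested. Trem2 macrophage-like cells held 13.05, 6.90 and 22.0 CPM of Chil3 in the vehicle libraries and none in the ginkgetin libraries, where the floor of 3 UMIs over the group was 7.77 CPM, above vehicle replicate 2. Kupffer-like cells were near the floor, with 3.18, 1.65 and 2.58 CPM against 0 in all 3 ginkgetin libraries. Of the 25-base words in Chil3 transcripts 51.2% also occur in another gene, and 38.2% in Chil4, so counts could have been divided between these copies.

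Retnla (chr16:48842609-48844461, plus strand), which encodes the secreted protein RELMα (Fizz1), was carried by single cells. In Kupffer-like cells it stood at 15.9, 443 and 0 CPM in the vehicle libraries and at 0, 1687 and 0 CPM in the ginkgetin libraries, so replicate 2 of each group held nearly all of what was kept. In vehicle replicate 3 the cell filter had removed 120 of 146 Retnla UMIs. One vehicle replicate 2 cell held 1327 of the 3275 Retnla UMIs in kept cells, 7.24% of that cell's own UMIs. The next cells held 606 UMIs (a Kupffer-like cell of ginkgetin replicate 2) and 384 UMIs (a neutrophil-like cell of ginkgetin replicate 3). The vehicle cell was Kupffer-like too, and both Kupffer-like cells, so named by their clusters, held few Kupffer markers. The vehicle cell had 9 UMIs of Timd4, 1 of Clec4f and 1 of Cd5l and none of Marco, Cd163 or Vsig4, and the ginkgetin cell had 1 UMI of Vsig4 and none of the other 5. Together the top 3 cells held 70.7% and the top 10 held 91.4% of all Retnla UMIs, and 138 cells held any. Without the top cell of each library, Kupffer-like cells stood at 6.29 CPM in vehicle replicate 2 and 428 CPM in ginkgetin replicate 2. The fitted difference in Kupffer-like cells (log2 fold change 1.42, SE 2.21, adjusted p = 0.688, edgeR) turned its sign without ginkgetin replicate 2 (-12.39), where the other two ginkgetin libraries were at 0 and the fitted size has no meaning. In cDC2-like cells 2 cells of vehicle replicate 2 held 137 Retnla UMIs and 1 cell of ginkgetin replicate 3 held 34, and the other libraries held none. Trem2 macrophage-like cells held 13, 70 and 25 Retnla UMIs in the vehicle libraries and none in the ginkgetin libraries. No group difference in Retnla can be read from these libraries.

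**Figure D4:**
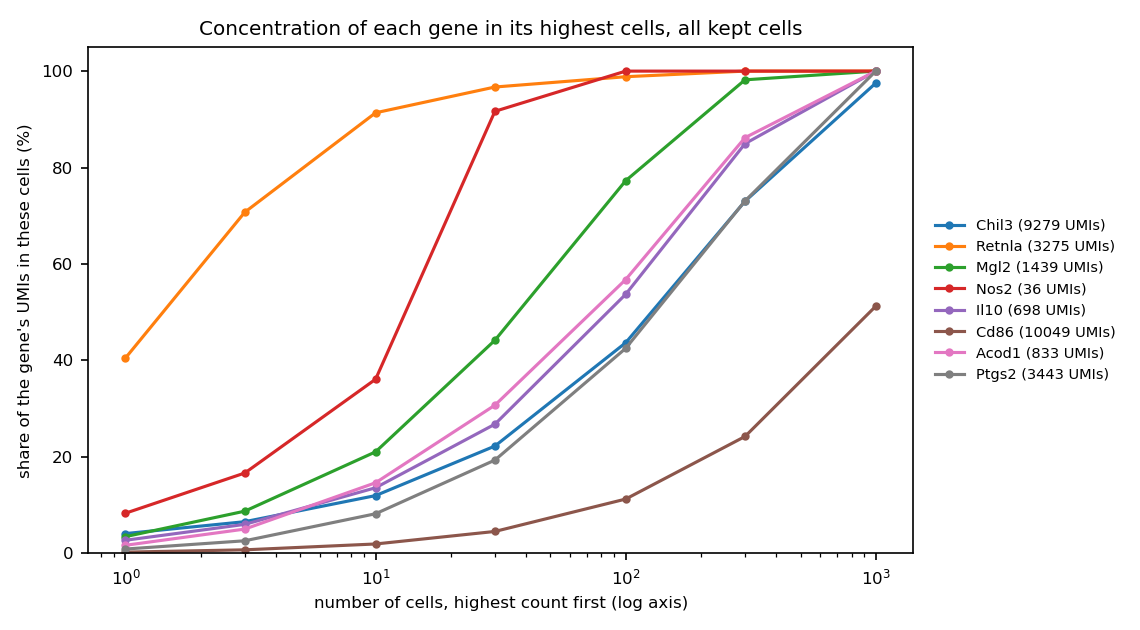
Share of the UMIs of each member (vertical axis, percent) held by its highest cells (horizontal axis, number of cells on a log scale) among all kept cells. The Retnla curve starts highest, with 40.5% of its UMIs in 1 cell and 70.7% in 3 cells, above the curves of the other members over that range.

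Mgl2 (chr11:70130125-70137542, plus strand), a galactose-binding lectin of the CD301 family, had most of its UMIs in dendritic cells. In cDC2-like cells it stood at 120, 40.4 and 155 CPM in the vehicle libraries and at 160, 105 and 587 CPM in the ginkgetin libraries. The groups overlapped and replicate 3 of the ginkgetin group was highest (log2 fold change 1.34, SE 0.53, adjusted p = 0.262, edgeR). With the replicate block Mgl2 passed in cDC2-like cells (1.28, SE 0.25, adjusted p = 0.0258), against 2.34% of all genes, but not when the barcode set was the block (adjusted p = 0.0662). Endothelial markers stood at 60.4 to 97.2 CPM in vehicle and 178 to 856 CPM in ginkgetin cDC2-like cells and B cell markers at 11.01 to 16.1 and 22.5 to 65.6 CPM, and their part in this value was not tested. Thinned to 1000 UMIs, 6.94%, 4.55% and 10.7% of vehicle and 8.33%, 7.69% and 30.9% of ginkgetin cDC2-like cells held an Mgl2 UMI. In all monocytes and macrophages Mgl2 was low, at 2.76, 0.429 and 2.23 CPM in the vehicle libraries and 11.4, 7.43 and 8.83 CPM in the ginkgetin libraries, from 52, 4 and 52 against 11, 12 and 28 UMIs. All 3 ginkgetin libraries lay above the vehicle libraries, as they did for 2555 of the 10679 genes tested, but the difference did not pass (log2 fold change 1.93, SE 0.58, adjusted p = 0.0752, edgeR). It passed with the replicate block (2.10, adjusted p = 0.0175), by DESeq2 (1.99, adjusted p = 0.0151, with 8.91% of genes called) and with scaling by library size alone (2.26, adjusted p = 0.0494, with 7.12% of genes called). Classical monocyte-like cells held 9.14, 0.811 and 3.68 CPM of Mgl2 against 20.3, 11.7 and 7.86 CPM, which overlapped (1.30, SE 0.70, adjusted p = 0.447, edgeR). The pDC-like cells held 22, 4 and 7 against 2, 5 and 10 Mgl2 UMIs. Of the 28 UMIs of ginkgetin replicate 3, 20 lay in its 36 Trem2 macrophage-like cells. Of the 25-base words in Mgl2 transcripts 25.5% also occur in Clec10a, one of the markers that named the cDC2-like class.

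Cd86 (chr16:36568956-36666158, minus strand), the costimulatory ligand of CD28 and CTLA4, was the member most widely present in the myeloid cells and the one that fell in Kupffer-like cells. It stood at 159, 159 and 245 CPM in vehicle and at 82.3, 87.8 and 138 CPM in ginkgetin Kupffer-like cells, 188 ± 49.7 against 103 ± 30.7 (SD, n = 3), from 1148, 484 and 1805 against 22, 42 and 230 UMIs. The groups did not overlap, as 8.63% of all genes tested did not in that direction, and the log2 fold change was -1.26 (SE 0.24, adjusted p = 0.0128, edgeR). Within the barcode sets the log2 CPM ratios were -0.90 and -0.83. The call was lost with scaling by library size alone (-0.83, adjusted p = 0.0722, with 18.2% of genes called), without ginkgetin replicate 2 (-1.22, adjusted p = 0.0535) and with the filter applied to UMIs (-1.02, adjusted p = 0.102, with 1.26% of genes called), and the sign was kept under every alternative tried (-1.51 to -0.83). Thinned to 1000 UMIs, 13.7%, 15.7% and 21.4% of vehicle and 7.87%, 10.3% and 10.9% of ginkgetin Kupffer-like cells held a Cd86 UMI, beside at most 2.41% of T cell-like cells. The unthinned shares were 69.8%, 56.1% and 87.6% against 19.1%, 19.0% and 28.6%, at the unequal depths given above. Vehicle and ginkgetin Kupffer-like cells lay in different clusters, as also given above. The part of this difference in clusters in the Cd86 values was not tested.

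In the other macrophage and monocyte classes Cd86 overlapped between groups. Trem2 macrophage-like cells held 91.8, 98.8 and 118 CPM in the vehicle libraries and 92.5 and 171 CPM in ginkgetin replicates 1 and 3, from 6 and 55 UMIs in the latter (log2 fold change 0.06, SE 0.32, adjusted p = 0.963, edgeR). Classical monocyte-like cells held 82.8, 140 and 118 CPM against 93.9, 82.7 and 69.4 CPM (-0.54, SE 0.29, adjusted p = 0.450). In patrolling monocyte-like cells the values were 24.7, 45.8 and 57.04 CPM against 45.1, 23.5 and 59.6 CPM. A dendritic class, cDC1-like cells, held 183, 177 and 197 CPM in the vehicle libraries and 101, 158 and 169 CPM in the ginkgetin libraries. There every ginkgetin library was below every vehicle library, the second resting on 3 cells and not in the fit, as 15.6% of genes were over the libraries fitted, and the difference did not pass (-0.48, adjusted p = 0.496, edgeR). In cDC2-like cells Cd86 stood at 75.2, 108 and 104 CPM against 67.4, 46.9 and 76.9 CPM, which overlapped (-0.59, SE 0.26, adjusted p = 0.306, edgeR). T cell-like cells held 13.7, 8.93 and 15.3 CPM against 6.63, 6.67 and 6.34 CPM from 108 and 42 UMIs in all, with no overlap, as for 11.7% of genes there, and the difference did not pass (-0.87, SE 0.32, adjusted p = 0.411, edgeR). Mature DC-like cells held 23, 6 and 13 Cd86 UMIs in the vehicle and 1, 6 and 31 in the ginkgetin libraries. B cell-like cells held 47.3, 35.6 and 36.2 CPM against 38.0, 29.2 and 40.2 CPM. In all monocytes and macrophages Cd86 stood at 113, 127 and 157 CPM against 92.0, 78.0 and 119 CPM (-0.78, SE 0.20, adjusted p = 0.0503).

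Il10 (chr1:131019845-131024970, plus strand), the anti-inflammatory cytokine, was found in Kupffer-like, Trem2 macrophage-like and T cell-like cells. In Kupffer-like cells it stood at 5.66, 14.2 and 14.3 CPM in the vehicle libraries and at 26.2, 4.18 and 22.2 CPM in the ginkgetin libraries, with the ginkgetin libraries both highest and lowest (log2 fold change 0.21, SE 0.54, adjusted p = 0.822, edgeR). In Trem2 macrophage-like cells the vehicle libraries held 3.89, 12.0 and 10.5 CPM and ginkgetin replicates 1 and 3 held 0 and 3.11 CPM. In T cell-like cells it stood at 18.0, 18.5 and 10.1 CPM against 5.85, 0.445 and 3.17 CPM, 15.5 ± 4.73 against 3.16 ± 2.70 (SD, n = 3). Every ginkgetin library lay below every vehicle library in T cell-like cells, as for 11.7% of genes there, and the difference did not pass (-2.19, SE 0.62, adjusted p = 0.317, edgeR). In T cell-like cells, where Cd86 did not overlap either, T cell markers stood at 3074 to 3491 CPM in vehicle and 1786 to 2506 CPM in ginkgetin libraries, endothelial markers at 64.1 to 89.3 and 225 to 863 CPM and B cell markers at 11.3 to 15.6 and 15.99 to 80.1 CPM, and their part in these values was not tested. Classical monocyte-like cells held 4, 19 and 14 Il10 UMIs in the vehicle and 0, 0 and 1 in the ginkgetin libraries. Plasma cell-like cells held 16, 2 and 3 against 1, 12 and 1 Il10 UMIs. In all kept cells, where Il10 fell, the values were 4.53, 8.27 and 6.68 CPM against 2.48, 1.10 and 2.22 CPM.

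Acod1 (chr14:103047012-103056573, plus strand), the enzyme that makes itaconate from the citric acid cycle, was spread over Kupffer-like, classical monocyte-like and neutrophil-like cells. Classical monocyte-like cells held 20.9, 20.3 and 16.4 CPM in the vehicle libraries and 14.7, 13.8 and 5.24 CPM in the ginkgetin libraries. These did not overlap, as was the case in that direction for 8.91% of genes tested, and the difference did not pass (log2 fold change -0.85, SE 0.42, adjusted p = 0.403, edgeR). Kupffer-like cells held 8.29, 11.2 and 26.3 CPM against 14.97, 8.36 and 6.001 CPM. The groups overlapped, and the difference passed with the replicate block (-1.62, SE 0.51, adjusted p = 0.0304) and not without it (-1.35, SE 0.57, adjusted p = 0.134). The gene was listed as Irg1 in replicates 1 and 2 and as Acod1 in replicate 3, and the symbols were joined. Replicates 1 and 2 gave a log2 CPM ratio of 0.26 and replicate 3 gave -2.13 on the CPM scale, and over replicates 1 and 2 alone the fitted value was -0.22 (adjusted p = 0.826, edgeR). In all monocytes and macrophages these CPM ratios of Acod1 were 0.19 and -1.57. Neutrophil-like cells held 68.1 and 189.9 CPM of Acod1 in vehicle replicates 1 and 3. All 15 Acod1 UMIs of pDC-like cells lay in 2 cells of vehicle replicate 3. Over all kept cells Acod1 stood at 6.26, 6.22 and 10.4 CPM against 1.28, 1.19 and 0.863 CPM.

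Ptgs2 (chr1:150100031-150108234, plus strand), the inducible cyclooxygenase COX-2 that starts prostaglandin synthesis, was highest in neutrophil-like and classical monocyte-like cells. Classical monocyte-like cells held 42.5, 69.3 and 199 CPM in the vehicle libraries and 129, 27.6 and 49.8 CPM in the ginkgetin libraries. The groups overlapped widely (log2 fold change -0.64, SE 0.65, adjusted p = 0.686, edgeR), and over replicates 1 and 2 alone the fitted sign was the opposite (0.40). Neutrophil-like cells held 106.9 and 456 CPM in vehicle replicates 1 and 3. In cDC2-like cells Ptgs2 stood at 32.2, 79.5 and 93.97 CPM against 64.6, 40.6 and 47.5 CPM, which overlapped (-0.43, SE 0.40, adjusted p = 0.646, edgeR). Kupffer-like cells held 3.73, 4.61 and 16.6 CPM against 0, 10.5 and 7.20 CPM of Ptgs2. All 28 Ptgs2 UMIs of pDC-like cells lay in 1 cell of vehicle replicate 3. Trem2 macrophage-like cells held 9.84, 18.9 and 69.4 CPM against 15.4 and 24.9 CPM in ginkgetin replicates 1 and 3, with 1 UMI in ginkgetin replicate 1. The groups overlapped and the difference did not pass (-0.95, SE 0.996, adjusted p = 0.684, edgeR), but did with the barcode set as a block (-1.68, SE 0.50, adjusted p = 0.0165). In stellate-like cells the vehicle libraries held 93.1, 31.0 and 42.3 CPM and the ginkgetin libraries 21.1, 5.92 and 23.4 CPM, with too few UMIs to test. Over all kept cells Ptgs2 stood at 12.0, 18.3 and 55.5 CPM against 9.67, 5.11 and 6.33 CPM, with vehicle replicate 3 far above the other two. Between replicates 1 and 2 and replicate 3 the log2 CPM ratio of Ptgs2 went from -1.04 to -3.13 over all kept cells, from 1.15 to -2.03 in all monocytes and macrophages and from 0.33 to -1.20 in Kupffer-like cells.

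UMIs of an M1 and an M2 marker were also counted in the same cells. Among the 5083 vehicle monocytes and macrophages 1017 had a Chil3 UMI, 2764 had a Cd86 UMI and 457 had both, beside the 553 that independent occurrence would give. Doublets were not removed from these cells. These are counts of cells with a UMI and depend on depth, and a cell without a UMI is not shown to lack the transcript. The independent count was taken over all classes together. Mean Chil3 over the libraries was 380 CPM in classical monocyte-like and 1.23 CPM in Kupffer-like cells. The lower count therefore cannot show that both markers exclude each other within cells.

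Genes whose levels ran most like each member were found over 88 sums of a class in a library, as a description in which points share libraries and depth. Chil3 was closest to Trem3 (Pearson r = 0.85), Gm9733 (0.83) and Clec4e (0.80), Mgl2 to Cd209a (0.91), Clec10a (0.84) and Cd209d (0.75), and Ctss and Spi1 were among the closest to Cd86 (0.85 each). Retnla reached at most 0.50, with Fabp7.

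Genes of the wider polarization lists moved in both directions in Kupffer-like cells. Of 17 tested genes of the list of interleukin 4 and interleukin 13 response, 4 rose and 4 fell (3 and 4 of 16 without Cd163), with a list median of 0.20 beside 0.05 for all genes. With scaling by library size alone 5 rose and 4 fell, with a list median of 0.65 beside 0.49 for all genes. Cd163, a haemoglobin scavenger receptor (4.70), Irf4 (3.58), Klf4 (1.502) and the mannose receptor Mrc1 (1.203) rose. Cd163 is also one of the markers that named the Kupffer-like class, and its rise is not a finding here. The lipid regulator Pparg (-2.33), Ear2 (-2.23), the interleukin 1 receptor antagonist Il1rn (-1.90) and the fatty acid receptor Cd36 (-1.57) fell. Of 22 tested genes of the list of lipopolysaccharide and interferon-gamma response, 2 rose, Il6 (2.58) and Fpr2 (1.09), and 3 fell, Il18 (-2.39), Cd86 and Cd14 (-1.23), with a list median of -0.04. With scaling by library size alone 3 rose and 1 fell, and the list median was 0.41 beside 0.49 for all genes. Endothelial markers stood at 149 to 153 CPM in vehicle and 550 to 1459 CPM in ginkgetin Kupffer-like cells. B cell markers stood at 38.5 to 59.6 and 44.9 to 201 CPM there. The part of these markers in the values of both lists was not tested.

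The smaller lists held few called genes each. Of 12 tested genes of arginine, nitric oxide and polyamine metabolism 2 stood above 0, the endothelial synthase Nos3 rose (2.61) and Asl (-1.4999) and Srm (-1.31) fell, with a list median of -0.85. Of 13 prostaglandin and leukotriene genes, Ptgis (3.78) and Alox5ap (1.23) rose and Hpgds (-1.30) fell. Of 8 itaconate genes 2 stood above 0, or 5 with scaling by library size alone, and Atf3 (-1.91) and Sdhb (-1.38) fell. Of 4 costimulation genes Icos rose (1.15) and Cd86 fell. The 10 tested genes of the interleukin 10 list had a median of 0.50 and gave no call by edgeR, 1 lower call with the replicate block and 2 higher calls with scaling by library size alone. Nos3 and Ptgis, known from endothelial cells, and Icos, known from T cells, rose beside the higher endothelial and T cell markers of ginkgetin Kupffer-like cells given above, and the part of those markers was not tested. In all, 22 of 80 different list genes tested were called in Kupffer-like cells, beside 12.1% of all genes. The count was 3 of 52 with the filter applied to UMIs, beside 1.26% of all genes, and it was 13 and 11 without vehicle replicate 1 or 2, and 12 and 13 without ginkgetin replicate 2 or 3. With scaling by library size alone the calls of Cd86, Cd14, Asl, Srm, Hpgds and Sdhb were lost, and no called gene turned its sign.

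**Figure D5:**
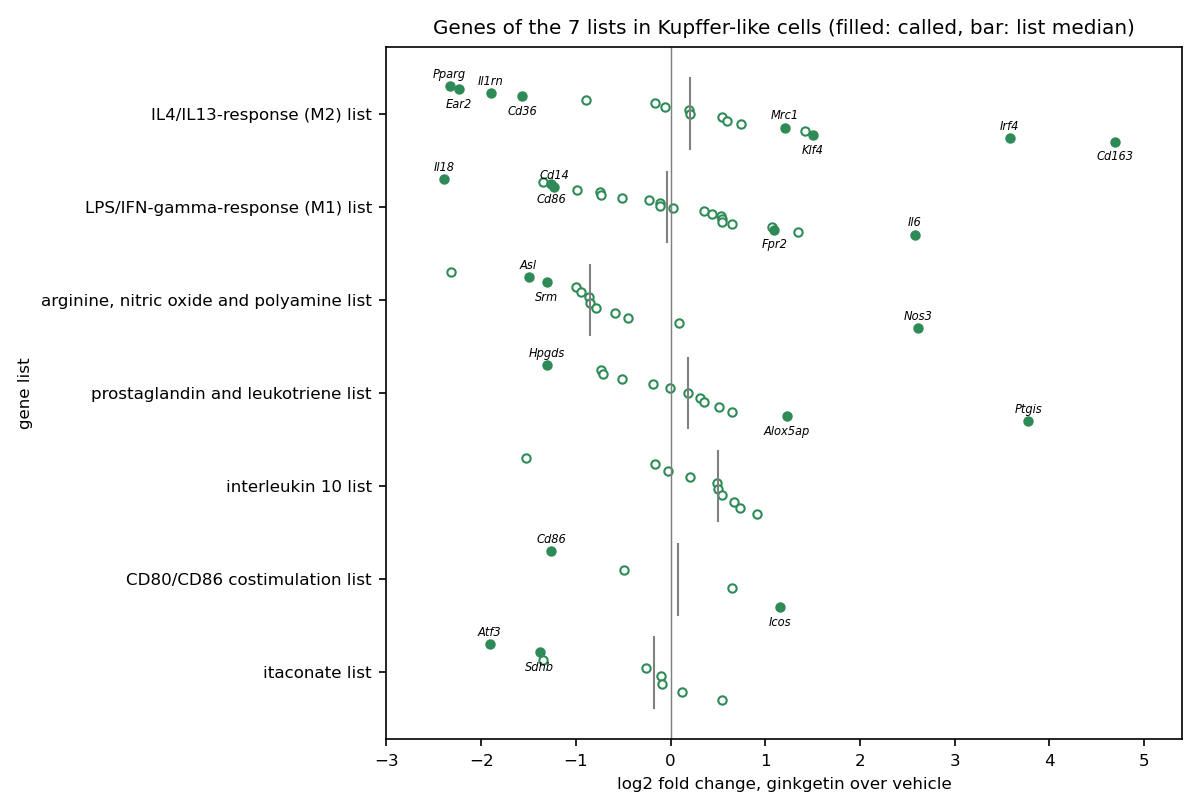
Log2 fold change (ginkgetin over vehicle, edgeR) of every tested gene of the 7 lists in Kupffer-like cells, 1 row of points for each list with its median as a line, filled where called. Genes of the M2 list lay on both sides of 0, 4 called higher and 4 called lower.

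Over all monocytes and macrophages 14 of 89 different list genes tested were called, beside 6.76% of all genes. edgeR called none of them without vehicle replicate 2 or without ginkgetin replicate 2, where 26 and 30 list genes had an unadjusted p under 0.05. The count was 3 without vehicle replicate 1, 9 and 7 without ginkgetin replicate 1 or 3, and 8 of 76 with the filter applied to UMIs, beside 2.67% of all genes. Of 22 tested genes of the M2 list, 3 rose, Irf4 (2.63), Klf4 (1.24) and the class marker Cd163 (4.85), and 4 fell, Ear2 (-1.79), Pparg (-1.70), Il1rn (-1.63) and Cd36 (-1.44), which makes 2 and 4 of 21 without Cd163. Of 22 genes of the M1 list Il6 rose (2.06) and Il18 (-1.78) and Cd14 (-1.44) fell. Outside these, Alox5 (2.30) and Icos (1.35) rose and Hpgds (-1.68) and Srm (-1.23) fell. Endothelial markers stood at 81.5 to 106 CPM in the vehicle and 322 to 1077 CPM in the ginkgetin cells of this sum, neutrophil markers at 73.8 to 79.4 and 93.1 to 209 CPM and T cell markers at 3.52 to 8.70 and 16.1 to 41.5 CPM, and their part in these values was not tested.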

How the data were processed

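Liver non-parenchymal cells of vehicle and ginkgetin mice with NASH were measured on the 10x Genomics Chromium platform, 3 libraries per group. The deposited tables held raw UMI counts per gene and barcode. The submitters' processing notes name GRCm38 and mm10, and the aligner and counter are not given in the sources used here. Older and newer symbols were joined through RefSeq synonyms, which left 16455 genes shared by all libraries. Members, lists and tests were chosen with earlier results of these data known.

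The range of 250 to 5000, which the methods of the study give in UMIs per cell, was applied to genes per cell, with a mitochondrial share under 5%. This kept 27544 of 33168 barcodes, against 16821 with the range applied to UMIs, which was an alternative. Cells were clustered with scanpy 1.11.5 (2000 variable genes without the genes of the rule, 30 components, 15 neighbours, Leiden resolution 1, seed 1, no integration), and myeloid cells were clustered again. Classes were named from fixed markers. Scrublet called under 0.5% of cells in every library and so did not work, and doublets were kept, with the 5% of cells of highest score left out as an alternative. CPM divide the count of a gene by all UMIs of a class in a library, times 1000000. Counts were summed per library and class with 10 or more cells, in at least 2 libraries per group, and fitted with edgeR 4.0.16 in R 4.3.3 (quasi-likelihood test, TMM, filterByExpr, group only). Adjusted p are Benjamini-Hochberg over all genes of a fit. The fits were tested on simulated data. DESeq2 1.42.0 was an alternative. For shares of cells with a UMI, 1000 UMIs were drawn from every cell, without cells of lower depth (58 Kupffer-like cells of ginkgetin replicate 3 and 2 of vehicle replicate 3). Intervals and floors, a floor being 3 counts, cover counting error only.

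Replicate numbers come from the sample titles. The correlation of the deviations of same-numbered libraries from their group means was 0.29, 0.28 and 0.59 over all monocytes and macrophages, 0.21, 0.18 and 0.52 in Kupffer-like cells and above 0.1 for every pair in the 12 classes and 2 sums with 6 libraries, so the numbers were taken to pair the libraries, though the labels name no shared batch or day. Trem2 macrophage-like cells could not be checked. Deviations from a group mean cancel out within the group. An offset shared by the replicate 3 libraries alone would therefore also give positive values among replicates 1 and 2. Crossed pairs of replicates 1 and 2 reached up to 0.41, so the check set replicate 3 apart and cannot show that replicates 1 and 2 are paired.

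Named genes were the 8 members in classes with 10 or more of their UMIs (classes of low level only by their mean in the plot of levels by class), genes of the 7 lists that were called in a monocyte or macrophage class (at most 6 per list and class), and the 3 genes most correlated with each member of 100 or more UMIs. Scaling by library size alone, leaving out a member's top cell, leaving out a small Saa3 and Prg4 cluster and the tests between classes were chosen after seeing the data. RefSeq held promoter stretches for Chil3, Retnla, Mgl2, Acod1 and Ptgs2. Chil4, Oxgr1 and Ms4a2 were not analysed here. The rule listed 10 genes, and 2 of them and a few other genes are not reported here.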

Additional observations from a re-analysis of the deposited data

Results flagged for a closer look

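The difference between groups in Cd86 differed between 2 macrophage classes. The log2 fold change in Kupffer-like cells minus that in Trem2 macrophage-like cells was -1.17 (SE 0.29, adjusted p = 0.003, edgeR, 1 fit over both classes with the library as a term, 5 libraries). Cd86 was lower in all 3 ginkgetin libraries in Kupffer-like cells, and in Trem2 macrophage-like cells the ginkgetin side rested on 11 and 36 cells. The same difference against classical monocyte-like cells was -0.70 (adjusted p = 0.262), against cDC2-like cells -0.64 (adjusted p = 0.227) and against patrolling monocyte-like cells -1.22 (adjusted p = 0.236), none past the test.

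For Mgl2 the log2 fold change in classical monocyte-like cells minus that in Trem2 macrophage-like cells was -3.54 (SE 0.77, adjusted p = 0.00358, edgeR). That value rests on 20 Mgl2 UMIs in the 36 Trem2 macrophage-like cells of ginkgetin replicate 3, which stood at 62.2 CPM beside 0 CPM in ginkgetin replicate 1 and 0.687, 0.363 and 2.01 CPM in the vehicle libraries. These were 2 of 27 differences between classes computed over 5 pairs of classes, 9 of which had an unadjusted p under 0.05. Of all genes tested, 398 of 10343 had an adjusted p under 0.05 for Kupffer-like against Trem2 macrophage-like cells. The count was 140 of 9806 for classical monocyte-like against Trem2 macrophage-like cells. For Kupffer-like against classical monocyte-like, cDC2-like and patrolling monocyte-like cells it was 365 of 9636, 487 of 8836 and 89 of 5995.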

How the results depend on the processing

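Few members passed within cell classes, and ginkgetin macrophages were fewer and shallower than vehicle macrophages, which limits every value within a class. Of 32 log2 fold changes of a member in a class or a sum of classes, 20 kept their sign under every alternative, and of 595 alternative values 538 kept sign and side of the threshold. Among the 32 were 7 values each in the sums of all monocytes and macrophages and of all kept cells, so these counts are not for single classes alone.

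The replicate block raised the members called from 1 to 2 in Kupffer-like cells, from 0 to 1 in all monocytes and macrophages, from 0 to 1 in each of Trem2 macrophage-like, classical monocyte-like and patrolling monocyte-like cells and from 0 to 1 in the other classes, and it changed no call of a member other than these. The barcode set as a block gave 2 members in Kupffer-like (Cd86 and Acod1), 2 in Trem2 macrophage-like (Chil3 and Ptgs2) and 1 in all monocytes and macrophages (Mgl2). Without a filter on genes the counts were 2 in Kupffer-like, 2 in Trem2 macrophage-like, 1 in patrolling monocyte-like cells and 4 in the other classes (Mgl2 and Retnla in cDC2-like, Ptgs2 and Acod1 in pDC-like cells). Among these counts Chil3 in Kupffer-like and Trem2 macrophage-like cells and Ptgs2 and Acod1 in pDC-like cells had no UMI in the ginkgetin libraries, and Retnla in cDC2-like cells rested on 3 cells, and no change is read from them. Replicates 1 and 2 alone gave 3 in all kept cells against 5, the marker gate gave 1 in Trem2 macrophage-like cells (Mgl2) and DESeq2 gave 1 in all monocytes and macrophages. For the barcode-set block, no gene filter, the marker gate and replicates 1 and 2 alone, the share of all genes called is not given. Those counts are therefore not read as a result about the members. Scaling by library size alone gave 0 in Kupffer-like cells and 1 in all monocytes and macrophages. With the filter applied to UMIs, edgeR called 0 members in Kupffer-like cells, in all monocytes and macrophages (2.67% of genes) and in all kept cells, and the called list genes went from 22 of 80 tested to 3 of 52 in Kupffer-like cells and from 14 of 89 to 8 of 76 in all monocytes and macrophages.

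Leaving out 1 library at a time gave 0 to 1 members in Kupffer-like, 0 to 1 in patrolling monocyte-like, 0 in all monocytes and macrophages and 4 to 5 in all kept cells, and 11 to 22 and 0 to 13 list genes in Kupffer-like cells and in all monocytes and macrophages. Between groups, the share of thinned Kupffer-like cells that held a Cd86 UMI differed by -7.24 points, by -3.14 at 500 UMIs and by -48.97 without thinning.

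Signs turned for Cd86 in Trem2 macrophage-like cells (0.06, -0.0069 without a filter on genes) and for Cd86 in patrolling monocyte-like cells (0.10, -0.049 without a filter on genes, -0.0365 with the replicate block, -0.0401 without a cell filter, -0.48 with the marker gate and -0.0307 at 30 or more cells). They turned for Ptgs2 over replicates 1 and 2 alone in classical monocyte-like cells (0.40), all monocytes and macrophages (0.89) and cDC2-like cells (0.10). In all kept cells they turned for Retnla without the highest doublet scores (0.99) and for Mgl2 (0.02, then -0.0129 with DESeq2 size factors, -0.0119 by DESeq2, -0.10 with the barcode-set block, -0.39 in replicates 1 and 2 and -0.0572 without a cell filter). With 1 library left out, ranges that crossed 0 were -12.39 to 5.65 for Retnla, -0.16 to 0.56 for Il10 and -1.09 to 0.15 for Ptgs2 in Kupffer-like cells, -0.54 to 0.26 for Cd86 and -1.49 to 0.34 for Ptgs2 in Trem2 macrophage-like cells, -1.60 to 0.16 for Ptgs2 in classical and -0.0307 to 0.25 for Cd86 in patrolling monocyte-like cells, -12.57 to 5.01 for Retnla and -1.46 to 0.44 for Ptgs2 in all monocytes and macrophages, and -2.64 to 2.63 for Retnla and -0.64 to 0.32 for Mgl2 in all kept cells. The causes were not tested.

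Counts over all genes moved by over 1.5 times too. In Kupffer-like cells 1093 calls became 45 with the UMI filter and 1643 with scaling by library size alone, where 1454 were higher and 189 lower against 565 and 528. In all monocytes and macrophages 722 became 1098 with the barcode-set block, 195 with the UMI filter, 58 without vehicle replicate 1, 0 without vehicle replicate 2 and 9 without ginkgetin replicate 2, and the higher and lower calls went from 414 and 308 to 657 and 103 with scaling by library size alone. In all kept cells 1993 became 0 with the UMI filter, and 1015 higher and 978 lower became 1528 and 503 with scaling by library size alone.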
